A study of Mus musculus with 6 samples.

Results

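The dystrophin-glycoprotein complex is described here through 8 of its genes: Dmd (dystrophin), Utrn (utrophin), Sgca, Sgcb and Sgcd (alpha-, beta- and delta-sarcoglycan), Dag1 (dystroglycan), Sspn (sarcospan) and Sntb1 (beta-1 syntrophin). Each name matched 1 row of the deposited count table, so the members are 8 of its 56792 gene rows. The data are RNA sequencing counts from wild-type C2C12 cells, an immortalized mouse myoblast line whose cells fuse into myotubes when serum is lowered. Cells had differentiated for 4 days in 2% horse serum, after growth in 10% fetal calf serum, either with 1 µM lenvatinib (3 libraries) or without it (3 libraries). Lenvatinib is an anticancer drug that inhibits receptor tyrosine kinases, among them the receptors of vascular endothelial and fibroblast growth factors. The labels give neither the solvent of the untreated cells nor the time of drug addition, and do not call the replicates separate cultures. The p-values rest on the spread among the 6 libraries, and that spread may be technical only. For fold changes, the within-group spread of each gene was also pulled toward the trend over all rows tested.

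The complex links the actin cytoskeleton of a muscle fiber to the basement membrane. Dystrophin, under the plasma membrane, binds actin and the membrane-spanning beta-dystroglycan, while alpha-dystroglycan outside the cell carries sugar chains that bind laminin. The sarcoglycans and sarcospan form a subcomplex that stabilizes this bond, and syntrophins and dystrobrevins bind dystrophin inside the cell and recruit signaling proteins such as neuronal nitric oxide synthase. Utrophin is the homolog of dystrophin on an autosome. It is prominent in immature muscle and at the neuromuscular junction and can take dystrophin's place in the complex. Loss of dystrophin causes Duchenne muscular dystrophy, and loss of alpha-, beta- or delta-sarcoglycan causes a limb-girdle muscular dystrophy.

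Start regions are shown for Dmd and its homolog Utrn, and for Sspn, because the counts cannot tell which start site a transcript used. The sequences are the 250 bases before a RefSeq start site on GRCm38.p6, given 5′ to 3′ on the gene's strand. Capitals mark 4 motifs searched on both strands: the E-box (CANNTG) of myogenic factors, the CArG box of serum response factor, the MEF2 site, and the MCAT element (CATTCC) of TEAD factors. The table held 10 such regions for 7 of the 8 genes. The upstream Dmd region (chrX:82948620-82948869, plus strand) lies beside the start of Dmd-203, a 14910-base transcript. The downstream one (chrX:85048045-85048294, plus strand) has its start site 2.1 Mb further on, toward the gene's 3′ end, where the annotation places shorter transcripts. The Utrn region is chr10:12861736-12861985 (minus strand), at the start of Utrn-201. The annotation also places protein-coding Utrn transcripts that start further upstream, at 12869365 (Utrn-205, 11801 bases), 12868281 (Utrn-212) and 12868171 (Utrn-211). Their start regions are not shown, so the Utrn sequence covers only the start of Utrn-201. The Sspn region shown, 1 of 2 in the table, is chr6:145933872-145934121 (plus strand), at the start of Sspn-201.
Dmd upstream: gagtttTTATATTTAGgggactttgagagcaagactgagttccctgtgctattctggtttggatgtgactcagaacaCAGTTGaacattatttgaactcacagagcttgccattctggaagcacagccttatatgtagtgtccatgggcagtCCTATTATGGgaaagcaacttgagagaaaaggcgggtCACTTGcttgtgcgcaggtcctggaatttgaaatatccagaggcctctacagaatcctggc
Dmd downstream: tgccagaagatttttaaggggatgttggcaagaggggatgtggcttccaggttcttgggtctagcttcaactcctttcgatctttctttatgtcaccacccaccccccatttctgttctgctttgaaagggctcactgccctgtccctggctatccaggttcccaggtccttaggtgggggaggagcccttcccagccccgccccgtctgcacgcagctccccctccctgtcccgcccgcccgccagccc
Utrn: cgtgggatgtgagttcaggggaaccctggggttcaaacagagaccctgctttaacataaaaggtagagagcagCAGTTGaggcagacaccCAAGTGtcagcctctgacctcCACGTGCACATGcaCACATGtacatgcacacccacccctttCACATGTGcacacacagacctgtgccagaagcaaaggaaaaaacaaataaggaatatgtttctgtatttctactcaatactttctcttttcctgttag
Sspn: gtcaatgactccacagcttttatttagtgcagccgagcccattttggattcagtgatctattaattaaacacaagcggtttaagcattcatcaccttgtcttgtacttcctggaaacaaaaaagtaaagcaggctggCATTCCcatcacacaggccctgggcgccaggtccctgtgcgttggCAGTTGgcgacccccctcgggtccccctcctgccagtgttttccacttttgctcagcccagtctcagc

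The upstream Dmd region held all motif kinds but MCAT: E-boxes 173 and 61 bases before the start site, a CArG box at 98 and a MEF2 site at 244. Of 32851 start regions of this length, 66.2% held an E-box, 1.47% a CArG box, 2.92% a MEF2 site and 12.6% an MCAT element. The downstream Dmd region held none of the 4. The Utrn region held 7 E-boxes, all from 177 to 96 bases before the start site and some overlapping, and none of the other motifs. This region lies downstream of the starts of Utrn-205, Utrn-211 and Utrn-212 and does not describe the start regions of those transcripts. The Sspn region shown held an E-box at 68 bases and an MCAT element at 113 bases, and the other Sspn region (chr6:145931623-145931872) held no E-box and an MCAT element at 209 bases. A match describes letters in a window and is not evidence of binding.

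Library totals lay between 24566768 and 32406563 counts, and no library was a copy of another. Levels are given as CPM, a gene's share of its library's counts after TMM scaling. A fold change sets lenvatinib over untreated libraries and is a log2 value ± SE from edgeR's quasi-likelihood fit. A gene is said to have risen or fallen where its Benjamini-Hochberg adjusted p over all 14989 rows tested was under 0.05. The labels call the cells myoblasts, and markers of differentiated myotubes were abundant. Myog, the factor of terminal differentiation, stood at 1035 ± 14.1 CPM with lenvatinib and 855 ± 10.2 CPM without (SD, n = 3 each), and Myh3, the embryonic myosin, at 6381 ± 71.7 and 5968 ± 138 CPM. The 12 myoblast and myotube markers summed to 15490 to 15540 CPM in lenvatinib and 14730 to 15220 CPM in untreated libraries. Of these 12, 7 rose and 2 fell. Over all rows tested, 13.3% rose and 14.9% fell. The 8 reserve cell markers summed to 271.5 to 280.9 CPM in lenvatinib and 312.6 to 325.1 CPM in untreated libraries, with 3 higher and 2 lower. Vcam1 (59.8 CPM with lenvatinib, 99.2 CPM without) and Spry1 (62.5 and 90.4 CPM) fell, while Id1, Id3 and Hey1 rose. Pax7 stood at 11.6 and 10.9 CPM and did not pass. The 5 endothelial markers summed to at most 2.49 CPM and the 5 macrophage markers to at most 1.67 CPM in any library, and Adgre1, which defines macrophages, was at 0 counts in all of them. Markers of smooth muscle summed to 6634 to 6795 CPM with lenvatinib and 5704 to 5920 CPM without, with 3 of 5 tested higher and 1 lower. Most of this sum came from Acta2 (3204 CPM with lenvatinib, 2117 CPM without) and Des (2946 and 3362 CPM). Des is also among the myoblast and myotube markers. Myh11, the smooth muscle myosin, had at most 4 counts in any library and was not tested. Fibroblast markers summed to 857.5 to 947.9 CPM with lenvatinib and 808.3 to 843.5 CPM without, with 1 of 4 tested higher and 2 lower. The marker that rose was Col1a1 (615 CPM with lenvatinib, 483 CPM without). Pdgfra (11.6 and 15.4 CPM) and Pdpn (220 and 263 CPM) fell, and Dcn did not pass. Adipocyte markers summed to 15.8 to 16.8 CPM with lenvatinib and 21.6 to 24.7 CPM without, with 0 of 2 tested higher and 1 lower. The gene that fell was Cebpa, at 10.9 CPM with lenvatinib and 17.7 CPM without. Pparg stood at 5.35 and 5.46 CPM, and Adipoq, Plin1 and Fabp4 had at most 2 counts in any library. Schwann cell and nerve markers summed to 997.5 to 1026 CPM with lenvatinib and 998.4 to 1048 CPM without. Nearly all of that sum was Ncam1 (1008 and 1022 CPM). In such bulk RNA, fewer cells of a type and less RNA per cell cannot be told apart, and the part of these marker shifts in the results on the complex was not tested.

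With lenvatinib, the dystrophin transcript fell and was 1.6-fold lower, while transcripts of delta-sarcoglycan, sarcospan and beta-1 syntrophin rose 1.21-, 1.22- and 1.18-fold and that of beta-sarcoglycan 1.10-fold. Utrophin fell slightly, and dystroglycan and alpha-sarcoglycan did not pass the test. In all, 4 of the 8 genes rose, against 13.3% of all rows tested, and 2 fell, against 14.9% of all rows. The groups did not overlap in 5 of the 8 genes, against 40.1% of all rows. All 8 passed the filter on low counts. Their median log2 fold change was 0.09, beside 0.00274 over all rows tested. Calls were common in this experiment, with 28.2% of rows past the threshold, so the size of each change is given with its test.

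Dmd encodes dystrophin, the actin-binding anchor of the complex, on chromosome X from 81992476 to 84249747 in the table's own coordinates, which are not those of mm10. The positions given below for the other members are in the same deposited coordinates. They cannot be set against the start regions above, which are on GRCm38.p6. The level of Dmd was 21.2, 23.0 and 19.9 CPM in the lenvatinib libraries, against 32.7, 31.8 and 37.6 CPM in the untreated libraries. Every lenvatinib library lay below every untreated one. Behind these levels stood 526 to 645 counts per lenvatinib library and 813 to 1083 counts per untreated library, the fewest of the 8 genes. The log2 fold change was -0.68 ± 0.07 (95% interval -0.81 to -0.54, adjusted p = 3.08e-10 by edgeR's quasi-likelihood test). Of all rows tested, 6.15% had a larger absolute log2 fold change. The count covers all transcripts of the gene, so full-length dystrophin and the shorter forms from internal start sites cannot be told apart.

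Dmd had the third longest span of the rows tested, 2257272 bases. Of the 104 rows tested that span 500 kb or more, 30.8% fell and 9.62% rose, with a median log2 fold change of -0.09, against 14.9% and 13.3% of all rows. Sgcd belongs to the same class with a span of 1092717 bases and rose. Among the 21 rows of 1000 kb or more, 33.3% fell and 23.8% rose. The part of gene span in the fall of Dmd was not tested.

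Utrn, on chromosome 10 from 12257932 to 12745109, had many more reads per kb than Dmd, as given with the levels per kb. Utrophin transcripts stood at 371, 408 and 396 CPM in the lenvatinib libraries and at 428, 399 and 440 CPM in the untreated libraries. The groups overlapped, because the second untreated library lay below the second lenvatinib library. The log2 fold change was -0.11 ± 0.04 (95% interval -0.19 to -0.03, adjusted p = 0.0422 by edgeR's quasi-likelihood test). This call was lost without the first or the last library of either group (adjusted p = 0.124, 0.081, 0.166 and 0.142), with limma-voom (0.0708), and when GC content and length were corrected for, which gave -0.06 ± 0.03 (0.0606). Utrn has a feature length of 18532 bases, and of the 429 rows tested with 15 kb or more, 23.5% fell and 12.1% rose. Dmd (24349 bases), which fell, and Sgcd (16286 bases), which rose, belong to the same class. The part of feature length alone in the change of Utrn was not tested.

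**Figure D1:**
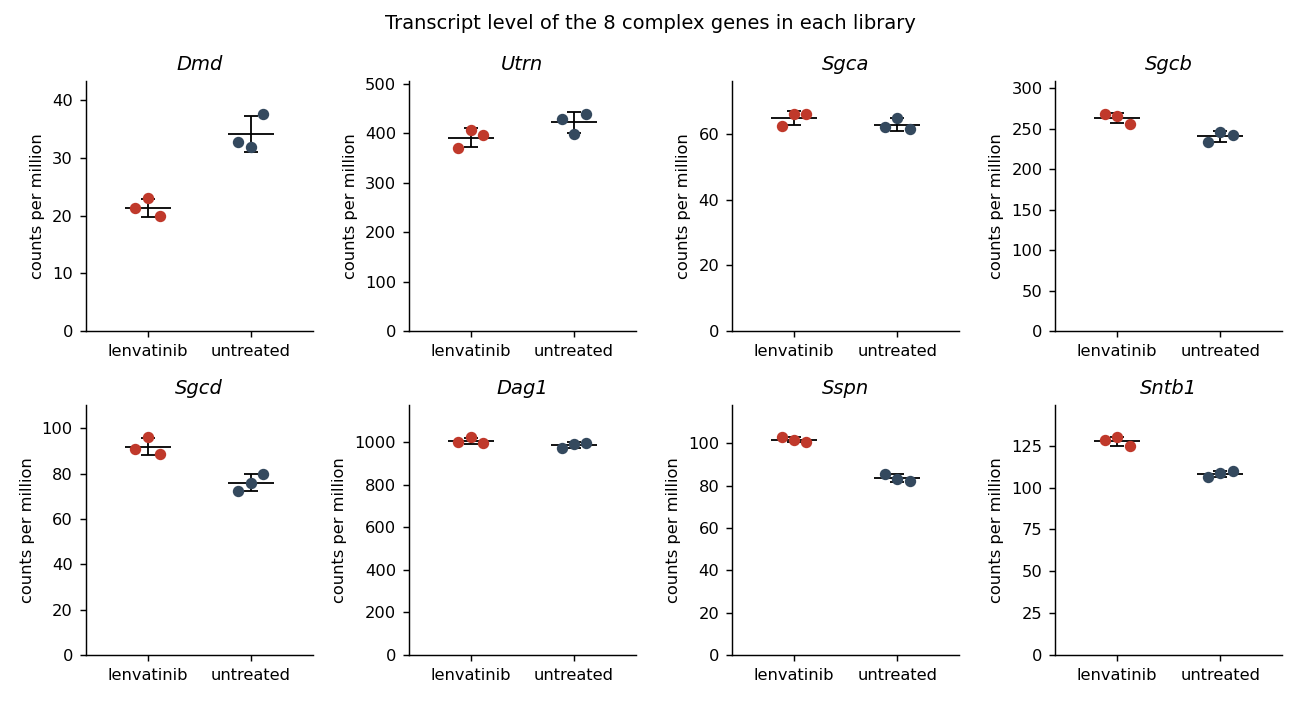
Level in CPM (vertical axis, from 0) of each of the 8 genes in the 3 lenvatinib and the 3 untreated libraries; points are libraries, the horizontal bar is the mean and the error bar the SD. Dmd lies lower in every lenvatinib library, Sgcb, Sgcd, Sspn and Sntb1 lie higher in every one, and Utrn, Sgca and Dag1 overlap between the groups.

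Among the sarcoglycans, transmembrane proteins that assemble with each other and with sarcospan, Sgcd and Sgcb rose and Sgca did not pass; the differences between the genes were not tested. Sgcd, delta-sarcoglycan (chromosome 11, 46787080 to 47879796), stood at 91.1, 96.0 and 88.8 CPM with lenvatinib and at 72.4, 75.8 and 79.9 CPM without. The groups did not overlap, and the log2 fold change was 0.27 ± 0.04 (adjusted p = 4.03e-07, edgeR). Sgcb, beta-sarcoglycan (chromosome 5, 73790092 to 73805133), stood at 269, 266 and 256 CPM with lenvatinib and at 233.5, 246 and 242 CPM without. The groups did not overlap, and the rise was 0.13 ± 0.03 on the log2 scale (adjusted p = 0.000419, edgeR), and 45.7% of all rows had a larger absolute change. Sgca, alpha-sarcoglycan (chromosome 11, 94853617 to 94867153), stood at 62.5, 66.2 and 66.1 CPM with lenvatinib and at 62.0, 65.0 and 61.4 CPM without. The groups overlapped, and the interval of its log2 fold change ran from -0.03 to 0.13 (0.05 ± 0.04, adjusted p = 0.399, edgeR).

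Sspn encodes sarcospan, a membrane protein with 4 membrane-spanning segments that binds the sarcoglycans, on chromosome 6 from 145877367 to 145910949. It stood at 102.8, 101.6 and 100.5 CPM with lenvatinib and at 85.7, 83.1 and 82.2 CPM without. Its libraries were among the tightest of the 8 genes, and the groups were well apart (0.28 ± 0.03, adjusted p = 1.44e-08, edgeR). Sntb1 encodes beta-1 syntrophin, a cytoplasmic adaptor that binds dystrophin and utrophin, on chromosome 15 from 55499784 to 55770345. It stood at 128, 130 and 125 CPM with lenvatinib and at 106, 109 and 110 CPM without. The groups again did not overlap (0.24 ± 0.03, adjusted p = 1.58e-07, edgeR). Of all rows tested, 22% had a larger absolute change than Sspn and 26.6% a larger one than Sntb1.

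Dag1 encodes the precursor that is cleaved into alpha- and beta-dystroglycan, the laminin receptor of the complex, on chromosome 9 from 108081833 to 108141157. It had the most counts of the 8 genes, at 1001, 1024 and 997 CPM with lenvatinib and at 974, 994 and 999 CPM without. The groups overlapped, and the interval of the log2 fold change ran from -0.02 to 0.08 (0.03 ± 0.02, adjusted p = 0.473, edgeR). The Dag1 interval bounds a change at this depth to far less than that of Dmd.

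The other genes of the complex formed a list of 11, of which 8 were tested, 1 rose, 1 fell and 6 did not pass, with a median log2 fold change of -0.01. Over all rows tested, 13.3% rose and 14.9% fell. The gene that rose was Nos1, neuronal nitric oxide synthase, which syntrophin and dystrophin hold at the membrane. It stood at 15.9, 17.7 and 16.4 CPM with lenvatinib and at 6.76, 7.09 and 6.43 CPM without, 2.46-fold higher (1.30 ± 0.09, adjusted p = 8.53e-16, edgeR). This was a larger change than that of any of the 8 genes, and 1.39% of all rows had a larger one. The gene that fell was Cav3, the muscle caveolin that binds dystroglycan, at 53.9, 58.5 and 55.7 CPM with lenvatinib and 74.2, 84.1 and 80.1 CPM without (-0.50 ± 0.04, adjusted p = 6.17e-12, edgeR). In Nos1 and in Cav3 the groups did not overlap, as in 40.1% of all rows tested.

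Among the partners that did not pass, Sgce, epsilon-sarcoglycan, a homolog of Sgca, stood at 29.1 ± 1.22 CPM with lenvatinib and 29.5 ± 0.359 CPM without (SD, n = 3 each). Sntb2, beta-2 syntrophin, stood at 50.7 ± 2.39 CPM with lenvatinib and 50.8 ± 0.502 CPM without. The dystrobrevin gene Dtna stood at 78.8 ± 1.5 CPM with lenvatinib and 75.8 ± 2.48 CPM without, and Dtnb at 4.38 ± 0.439 and 4.51 ± 0.313 CPM. Sgcz and Sntg1 had 0 counts in all 6 libraries, where 3 counts correspond to 0.0926 to 0.123 CPM per library, and Sntg2 had at most 2. Correcting for GC content and length moved Dtna to a called rise of 0.10 (adjusted p = 0.0254) and gave 2 higher and 2 lower genes in the list. The list also had 2 lower genes without the second lenvatinib or the second untreated library, and with a filter at 5 CPM.

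**Figure D2:**
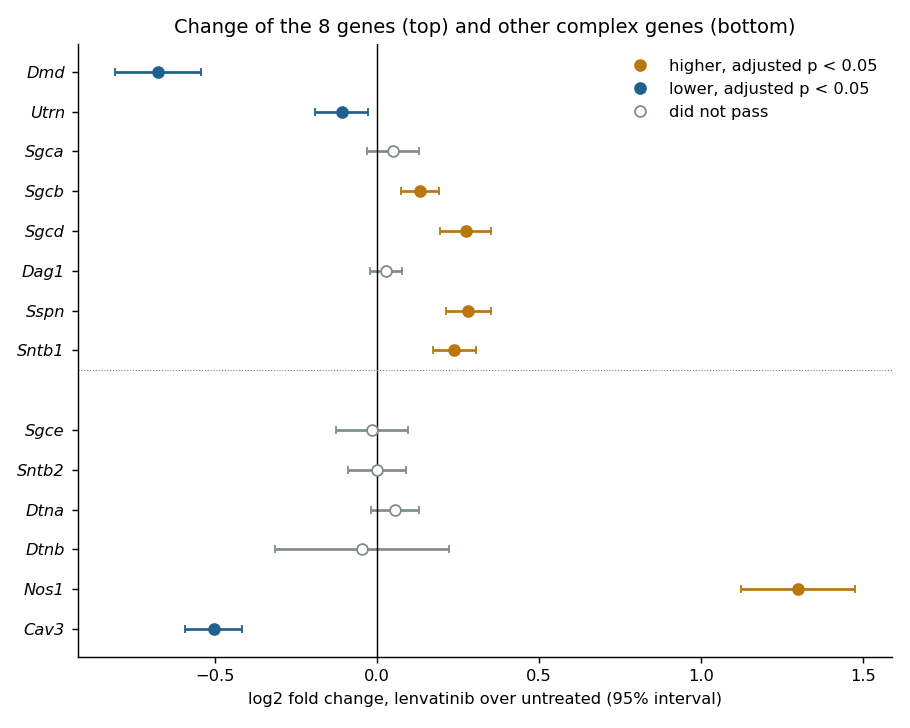
Log2 fold change, lenvatinib over untreated (horizontal axis), with its 95% interval for the 8 genes (top) and 6 other complex genes tested (bottom); filled symbols passed an adjusted p of 0.05. Nos1 (1.30) and Dmd (-0.68) lie farthest from 0, and Sgcd, Sspn and Sntb1 lie between 0.24 and 0.28.

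To compare levels between genes, CPM were divided by the feature length in kb that the table lists. Per kb, Dag1 was the highest at 158 ± 2.28 with lenvatinib and 156 ± 2.08 without, in CPM per kb. The order that followed in untreated cells was Sgcb (59.4 ± 1.56), Sgca (35.2 ± 1.07), Utrn (22.8 ± 1.13), Sntb1 (19.9 ± 0.301), Sspn (16.6 ± 0.361), Sgcd (4.67 ± 0.228) and Dmd (1.398 ± 0.128). In untreated libraries no pair of neighbours in this order overlapped. With lenvatinib the level of Sntb1 was 23.5 ± 0.5 and that of Utrn 21.1 ± 1.02 CPM per kb, so their order turned; with the longest GENCODE M21 transcript as the length it did not (25.95 and 31.6). Feature lengths that add up all annotated exons can understate the level of genes with many isoforms, such as Sgcd (16286 bases) and Dmd (24349 bases). On that transcript length Sgcd stood at 20.7 with lenvatinib and 17.1 CPM per kb without, and Dmd at 1.43 and 2.28. Dmd was the lowest of the 8 on both lengths and in both groups.

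**Figure D3:**
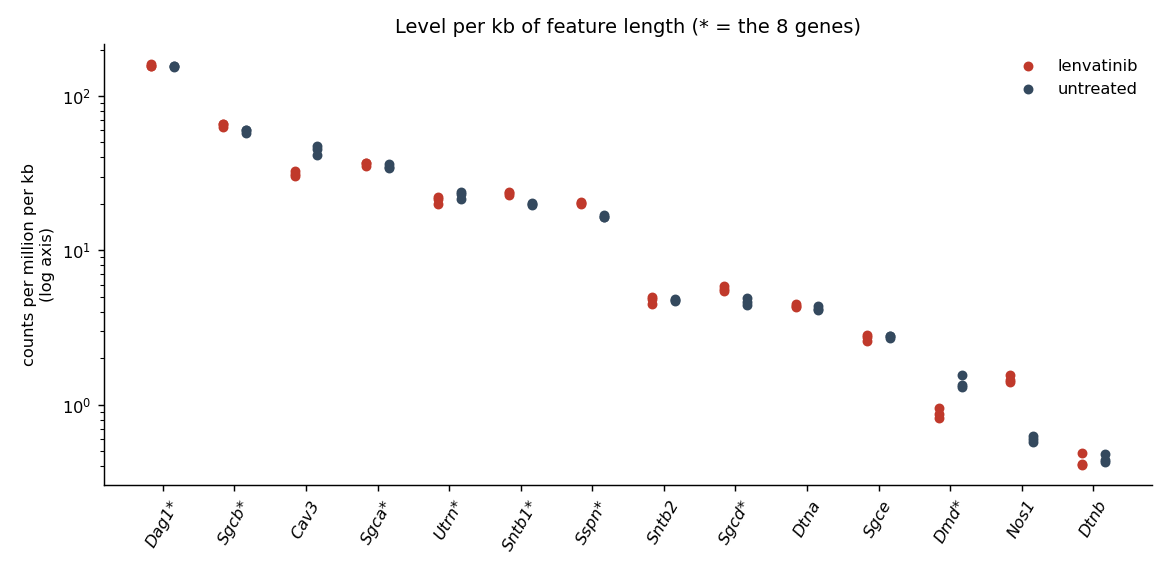
Level per kb of feature length (vertical axis, CPM per kb, logarithmic) of the 8 genes and 6 other complex genes in each library, ordered by the untreated mean; asterisks mark the 8 genes. Dag1 lies near 158 with lenvatinib and 156 without, Dmd near 0.878 and 1.398, and Nos1 lies above Dmd with lenvatinib and below it without.

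The balance between homologous genes was followed within each library as a ratio of reads per kb, which does not depend on library scaling. The ratio of Utrn to Dmd was 22.9, 23.3 and 26.1 in the lenvatinib libraries and 17.2, 16.5 and 15.4 in the untreated libraries. On the log2 scale the ratio was 0.56 higher with lenvatinib, and every lenvatinib library lay above every untreated one. The log2 fold change was -0.68 for Dmd and -0.11 for Utrn, so the higher ratio does not record a rise of Utrn. The exact two-sided permutation test gave p = 0.1, the smallest that 3 against 3 libraries allow, and 0.15 adjusted over the 3 ratios compared. The log2 ratio of Sgce to Sgca was -3.74 ± 0.0999 with lenvatinib and -3.67 ± 0.0318 without (SD, n = 3 each, exact permutation p = 0.4), and its groups overlapped. These ratios use the same counts as the gene tests and are no separate evidence.

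**Figure D4:**
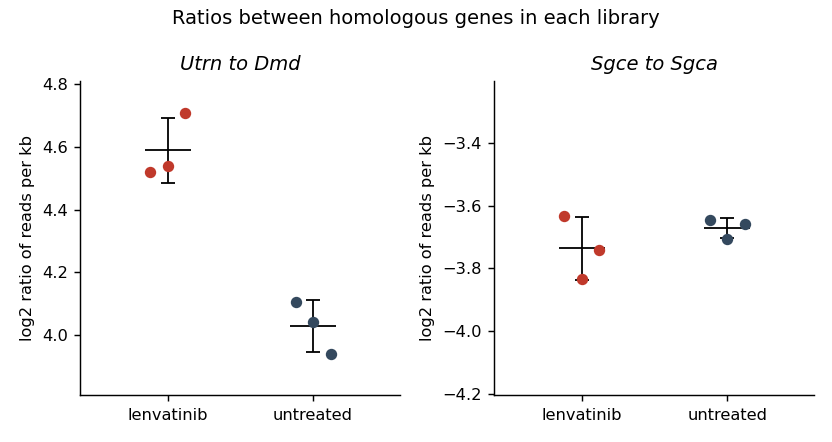
Log2 ratio of reads per kb between homologous genes in each library (vertical axis, both panels spanning 1 log2 unit); points are libraries, bars the mean and SD. Utrn to Dmd lies higher in all 3 lenvatinib libraries (by 0.56 in the mean), and Sgce to Sgca overlaps.

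Lists of genes around the complex give its setting. The counts of every list below stand beside 13.3% of all rows tested that rose and 14.9% that fell. The median log2 fold change over all rows was 0.00274. No list was tested against these values. Among 18 enzymes that build the sugar chain of dystroglycan, 16 were tested, 3 rose and 1 fell, with a median log2 fold change of 0.07. Pomgnt1, which extends O-mannose chains, rose to 139 ± 2.66 CPM with lenvatinib, against 125 ± 2.46 CPM without (0.15 ± 0.03). Gmppb rose by 0.23 on the log2 scale, and B3galnt2 fell by 0.18. Gmppb was no longer called without the second lenvatinib or the last untreated library (adjusted p = 0.106 and 0.0887). Without the last untreated library 1 enzyme of the list was higher.

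Ligands of dystroglycan and basement membrane proteins formed a list of 14, all tested. Of these 6 rose and 2 fell, against 13.3% and 14.9% of all rows tested, with a median of 0.09. The collagen IV chain genes Col4a1 and Col4a2 rose to 384 ± 5.27 and 263 ± 12.8 CPM with lenvatinib, against 258 ± 12.5 and 190 ± 1.97 CPM without. The laminin chain genes went both ways. Lama1 rose to 5.69 ± 0.922 CPM with lenvatinib, against 2.65 ± 0.182 CPM without (1.11 ± 0.15), and Lamb2, whose row is wider than the gene, rose by 0.30. Lamc1 and the linker gene Nid2 rose by 0.27 and 0.22. The 2 that fell were Lama4 (-0.80) and Lamb1 (-0.22, adjusted p = 0.0298); Lamb1 was no longer called without any 1 of the untreated libraries (adjusted p 0.119, 0.0676 and 0.134). Lama2, the laminin chain typical of muscle basement membrane, did not pass (interval -0.01 to 0.15). Lamc1, Nid2, Lama2 and the genes that fell were chosen after their values were seen.

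Integrin adhesion at the costamere, the other link between muscle cytoskeleton and matrix, had 1 of 12 genes higher and 1 lower, with a median of 0.00364. Tln2, the muscle talin, rose by 0.34 and Zyx (zyxin) fell by 0.15 on the log2 scale. Of 15 cytoskeletal linker genes 13 were tested, 3 rose and 3 fell, with a median of -0.01. When GC content and length were corrected for, 5 were higher and 4 lower. The genes that rose were Nexn (0.17), Actg1, the cytoplasmic gamma-actin that dystrophin binds (0.13), and Synm, a filament protein that binds dystrophin and utrophin (0.62, at 4.55 ± 0.406 CPM with lenvatinib and 2.98 ± 0.307 CPM without). Those that fell were Ank3, an ankyrin that binds dystrophin (-0.46), Krt19 (-0.41) and Des, desmin, which fell to 2946 ± 55.8 CPM with lenvatinib, against 3362 ± 83.2 CPM without (-0.19 ± 0.02). Synm and Krt19 were chosen after their values were seen.

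Of 16 membrane repair and limb-girdle dystrophy genes 13 were tested, 4 rose and 5 fell, with a median of -0.04. The 5 that fell did so by 0.10 to 0.16 on the log2 scale and were Dysf (dysferlin), Myof, Trim72, Ano5 and Anxa1. The 4 that rose were Anxa2 (0.26), S100a10, its binding partner (0.12), Anxa6 (0.10) and Cavin1 (0.09). Cavin1 was no longer called without the last untreated library (adjusted p = 0.101). Dysf, Anxa1, S100a10, Anxa6 and Cavin1 were chosen after their values were seen.

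**Figure D5:**
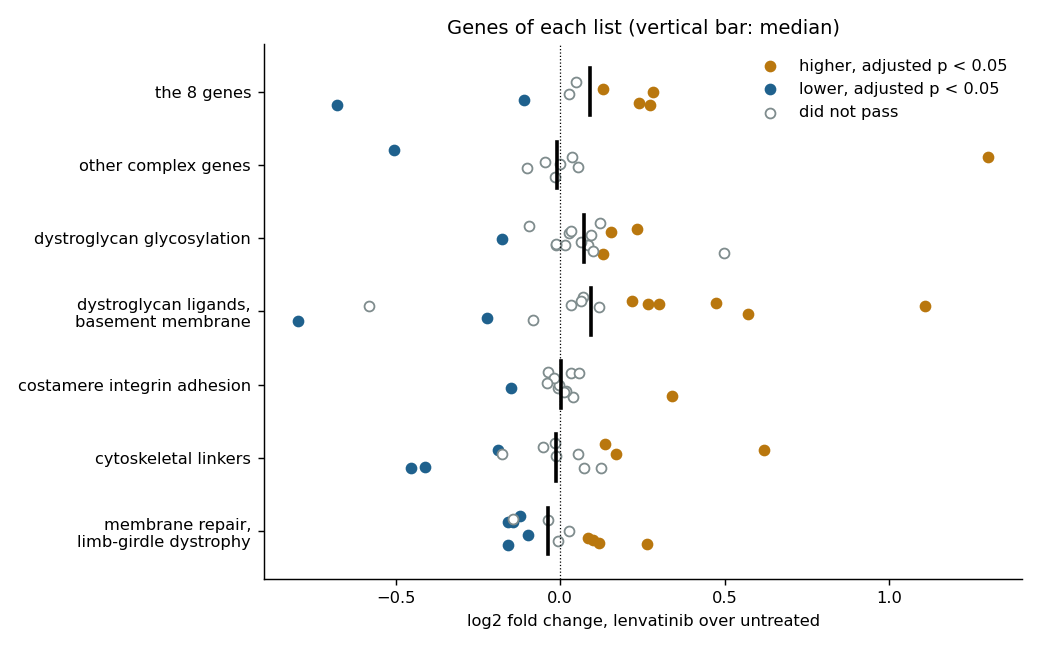
Log2 fold change, lenvatinib over untreated (horizontal axis), of each gene tested in the 8 members and 6 lists around the complex; filled points passed an adjusted p of 0.05 and vertical bars are list medians. All medians lie between -0.04 and 0.09, and the points farthest from 0 are Nos1, Lama1, Lama4 and Dmd.

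The rows whose log2 CPM followed that of Dmd most closely over the 6 libraries, out of 9837 searched, were Dclk1 (Pearson r = 0.999), H6pd (0.998) and Il1r1 (0.998). With 2 groups of 3 libraries, such values mostly record the difference between the groups. Dclk1, a microtubule-associated kinase, fell by 0.26 on the log2 scale and Il1r1, the interleukin-1 receptor, by 0.27. H6pd did not pass (-0.08 ± 0.04, adjusted p = 0.113, edgeR). Their changes were smaller than that of Dmd.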

How the data were processed

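Read counts per gene were used as the authors deposited them: whole-number counts, not normalized, in 1 column for each of the 6 libraries. Groups and replicate numbers came from the sample titles. The aligner was Hisat2 2.0.1, per the labels' protocols. HTSeq 0.6.1 and the mm10 build stand in the list of tools and builds per the submitters' processing notes. For the library kit and for strandedness, nothing is given in the sources used here. The deposited feature length in bases (unit other) served for levels per kb; it exceeds the gene's span in 585 rows, none of them a member. Rows overlapping a member had at most 11 counts in any library.

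The fit ran over the whole table with edgeR 4.0.16 in R 4.3.3 (filterByExpr with a minimum count of 10 and a minimum total of 15, TMM, glmQLFit with robust estimation, glmQLFTest); 14989 of 56792 rows were tested, 3273 of all rows having no Ensembl identifier. SEs derive from the F statistic. The biological coefficient of variation was 3.6%. The fit was tested on simulated data. Replicates differed by more than sampling noise (chi-square per degree of freedom 2.78 to 5.6). Floors of 3 counts per library cover counting error only. The members and lists were chosen with earlier results of these data known. Named were all members, the called genes of each list (at most 4 with the smallest p; others are marked), the genes of 3 ratios, the 3 rows most correlated with Dmd among those with at least 5 CPM, and defining markers; some list genes and the results that need them are not reported here, while list counts and medians cover every gene. Sequences are RefSeq's, on GRCm38.p6. Alternatives were DESeq2 1.42.0, voom in limma 3.58.1, scaling by size factors, upper quartile or totals, no filter or one at 5 CPM, a threshold of 0.01, a replicate block, a GC and length correction (GC content known for 97.1% of rows tested), and leaving out each library.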

Additional observations from a re-analysis of the deposited data

How the results depend on the processing

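Under 18 alternatives Dmd, Sgcb, Sgcd, Sspn and Sntb1 kept their direction and their call in each, and Sgca and Dag1 stayed uncalled; the log2 fold change of Dmd ranged from -0.73 to -0.60. The count of members that rose was 4 throughout. The count that fell was 2, but 1 with limma-voom, at an adjusted p under 0.01, with the replicate block, and with the GC and length correction without and with the replicate block, since Utrn was then lost (adjusted p 0.0708, 0.0422 against 0.01, 0.0549, 0.0606 and 0.0558); leaving out 1 library gave 1 to 2. The replicate block changed no other member's call. Same-numbered libraries had correlations of their deviations between -0.0782 and 0.0217, and differently numbered ones between -0.0601 and 0.0633. These values show no effect shared by number, but cannot tell whether same-numbered samples were handled as pairs. The Utrn to Dmd log2 ratio difference was 0.50 to 0.60 without 1 library. Between 3049 and 4592 rows were called, against 4229. Genes near 0 that never passed changed sign. Sntb2 was at 0.00575 with upper quartile scaling, 0.0012 with library totals, 0.0046 with no filter, 0.026 and 0.025 with the correction without and with the block, and -0.033 to 0.036 without 1 library. Sgce was at 0.018 and 0.017 with that correction and at -0.038 to 0.017 without 1 library, and Dtnb at -0.128 to 0.013 without 1 library. The 1 alternative of these 18 chosen after seeing the data was restricting the test to rows with an Ensembl identifier, and the GENCODE transcript lengths and the class of long features were also chosen after seeing the data. Of the members Dmd rests on the fewest counts, and gene-level counts do not resolve isoforms.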
